A study of Mus musculus with 7 samples.

Results

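The microRNA (miRNA) miR-31 was followed in CD8+ T cells of neonatal and adult mice through both products of its precursor, mmu-miR-31-5p and mmu-miR-31-3p (mmu for mouse, left out below). They are 2 of the 1978 mature miRNA names in the deposited table of estimated counts, each on 1 line and from 1 precursor. They were selected on the counts of miR-31-5p in these neonatal and adult libraries, so its age difference is given as a description without a test. The cells came from spleens of gBT-I mice, whose CD8+ T cells carry a transgenic receptor for a herpes simplex virus peptide, and small RNA was sequenced. Cells high for CD44 and CD122 are virtual memory (VM) cells, and cells low for both are true naive (TN) cells. There were 4 adult libraries (2 TN, 2 VM) and 3 neonatal ones (1 TN, 2 VM), so neonatal TN values have no SD. All 4 groups share the transgenic receptor, the bead enrichment for CD8 and the sort, and ages in days are not given in the sources used here. Nothing in the labels ties replicates to separate animals, so p-values measure only how far these libraries scatter, which may be technical.

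A miRNA is cut from a hairpin by Drosha and Dicer. One arm of the resulting duplex usually stays in an Argonaute protein as the guide, which recognises target mRNAs mainly through its seed, bases 2 to 8, and the other arm is mostly degraded. MiR-31 is known in T cells as a miRNA that calcium and T cell receptor signals induce, and outside the immune system as a miRNA of epithelial and stromal cells.

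The sequences below show which arm was counted and which seed it carries. They are RefSeq entries on GRCm38.p6. In the 106-base hairpin the capitals mark the 5p arm (bases 28 to 49) and the 3p arm (bases 64 to 86), and in the mature sequences they mark the seed.
Mir31 hairpin: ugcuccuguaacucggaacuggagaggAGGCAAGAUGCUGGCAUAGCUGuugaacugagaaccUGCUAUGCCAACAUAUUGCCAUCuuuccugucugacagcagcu
miR-31-5p: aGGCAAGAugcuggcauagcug
miR-31-3p: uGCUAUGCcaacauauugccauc

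The predicted minimum free energy fold of the hairpin (RNAfold) had -48.7 kcal/mol and paired 17 of the 22 bases of miR-31-5p with the 3p arm, across a stretch of 14 bases between the arms. Among 1679 mature names of the table with a RefSeq sequence, 0 others had the seed of miR-31-5p at bases 2 to 8, and 0 had that of miR-31-3p. The 7 letters of the miR-31-5p seed lay at other positions in miR-193a-5p and miR-3087-5p, and those of the miR-31-3p seed in miR-3088-5p. In no library did these 3 miRNAs have more than 5 counts. By its seed miR-31-5p was thus the only member of its group in the sequences searched.

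Mir31 lies on the minus strand of chromosome 4 at 88910557 to 88910662 (GRCm38, which is mm10), with miR-31-5p at 88910614 to 88910635 and miR-31-3p at 88910577 to 88910599. GENCODE M21 places the hairpin in exon 3 of 3 of the lincRNA AL805899.1 (88909855 to 88938521, same strand). The nearest protein-coding gene in that annotation was Ifne, an interferon gene 30.4 kb downstream, next to the type I interferon cluster. The nearest other miRNA gene on the chromosome, Mir491, was 788 kb away, so no neighbouring hairpin shares a short cluster with Mir31.

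**Figure D1:**
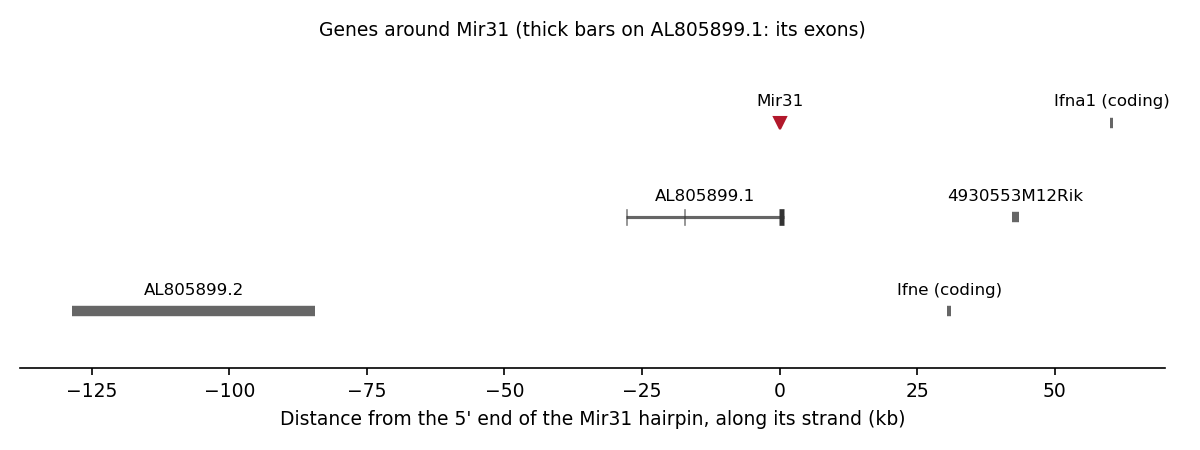
Map of genes around Mir31, with distance in kb from the first base of the hairpin along its own strand on the x axis and gene bodies as bars on 3 rows. The hairpin sits in the last exon of AL805899.1, and Ifne lies 30.4 kb downstream.

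MiR-31-5p was counted 17 and 21 times in the adult TN libraries, 19 and 19 times in adult VM, 311 and 713 times in neonatal VM and 773 times in neonatal TN. The totals behind these counts were 2056827 to 3278472 in the adult libraries and 1577046 to 3006561 in the neonatal ones. All 3 neonatal libraries stood above all 4 adult libraries, and the adult values lay close together.

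In CPM, counts per 1000000 library counts after scaling by TMM factors, which correct totals for composition, miR-31-5p stood at 9.17 and 8.99 in adult TN replicates 1 and 2. It stood at 7.65 and 6.57 CPM in adult VM, at 154 and 186 CPM in neonatal VM and at 241 CPM in neonatal TN. The lowest neonatal library was 16.8-fold above the highest adult one. The 95% counting interval was 5.34 to 14.7 CPM for adult TN replicate 1, from 17 counts, and 224 to 258 CPM for neonatal TN, from 773 counts. Adult levels were therefore known less precisely than neonatal ones. Without molecular identifiers reads are not independent molecules, so these intervals and limits cover counting error only.

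Within each library miR-31-5p ranked between 100 and 108 by count in neonatal cells, among 594 to 639 miRNAs with a count. In adult cells it ranked between 251 and 266, among 526 to 587. It took 0.0197 to 0.0259% of all counts in the neonatal libraries, so at both ages it was a minor part of the pool.

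The group means of miR-31-5p were, in falling order, 241 CPM in neonatal TN (n = 1), 170.0 ± 23.0 for neonatal VM (SD, n = 2), 9.08 ± 0.132 for adult TN (n = 2) and 7.11 ± 0.764 for adult VM (n = 2). The widest step in that order lay between the ages, and the steps between the subsets are tested below. The replicates of miR-31-5p differed by 0.28 on the log2 scale in neonatal VM, where replicate 2 was higher. They differed by 0.20 in adult VM and 0.03 in adult TN, where replicate 1 was higher. The median absolute difference over all 288 tested miRNAs was 0.20, 0.34 and 0.25 in these groups.

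**Figure D2:**
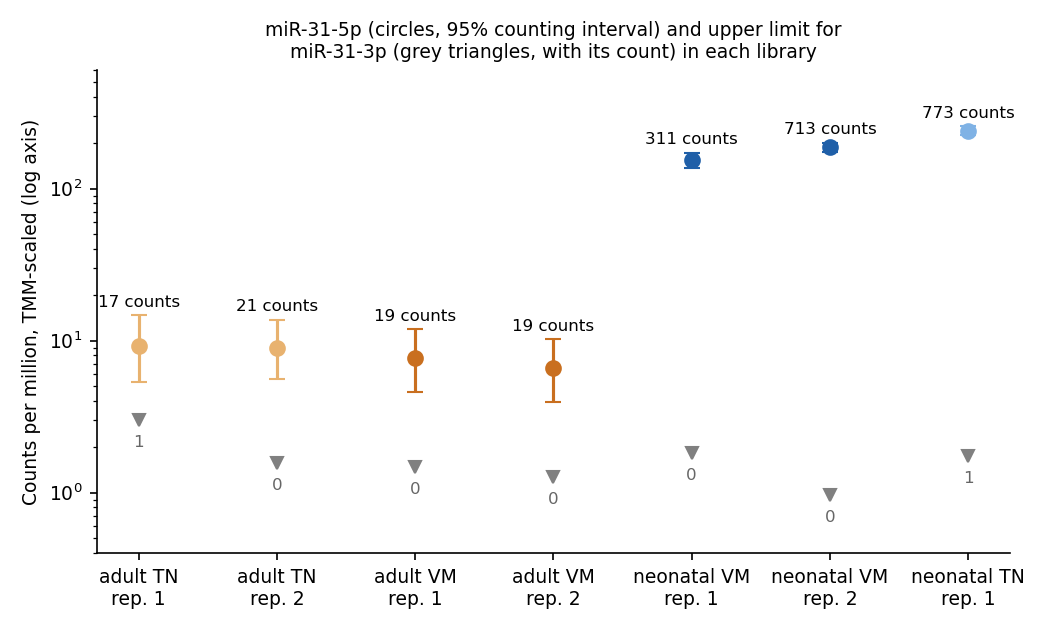
CPM of miR-31-5p (circles, TMM-scaled, log axis) in each of the 7 libraries, with exact Poisson 95% counting intervals as bars and the count above each. Grey triangles are the upper 95% limit for miR-31-3p with its count below. The 3 neonatal libraries sit at 154 to 241 CPM and the 4 adult libraries at 6.57 to 9.17 CPM.

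The 3p arm was almost absent. MiR-31-3p had 1 count in adult TN replicate 1, 1 in neonatal TN and 0 in the other 5 libraries, and it did not reach the level needed for testing. A count of 0, read as up to 3 counts, allowed up to 1.28 CPM in adult TN replicate 2, 1.21 and 1.04 CPM in adult VM, and 1.48 and 0.784 CPM in neonatal VM. A change of miR-31-3p with age was not detectable at this depth.

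Of the counts of both arms, the 5p arm took 99.9% in neonatal TN (773 of 774, exact Clopper-Pearson interval 99.3 to 99.997%). It took 311 of 311 and 713 of 713 in the neonatal VM libraries, where 0 counts of the 3p arm, read as up to 3, allowed a 3p share of up to 0.965% and 0.421% (exact upper limits 1.18% and 0.516%). It took 19 of 19 in both adult VM libraries and 17 of 18 and 21 of 21 in the adult TN libraries. Over the 7 libraries the share averaged 99.2 ± 2.09% (SD, n = 7). Summed over libraries the 3p share was 1 of 77 counts in adult cells (interval 0.0329 to 7.02%) and 1 of 1798 in neonatal cells (0.0014 to 0.309%). With 1 count of the 3p arm at each age, a difference in arm use between the ages could not be judged and was not tested.

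Arm use was strongly one-sided for most miRNAs. Of 173 pairs of arms with at least 100 counts over all libraries, the median share of the rarer arm was 1.73%. MiR-31, at 0.107%, had a smaller share of the rarer arm than 135 of them and a larger one than 37. The 5p arm dominated in 102 of the 173 pairs, as it did for miR-31.

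With age, miR-31-5p was 24.9-fold higher in neonatal than in adult cells over both subsets (log2 fold change 4.64, SE 0.23). The difference was 4.72 (SE 0.32) in TN cells and 4.58 (SE 0.30) in VM cells. Over both subsets it ranked first by fold among the 288 tested miRNAs, just above miR-7059-5p (4.63, SE 0.66), which had a mean of only 7.57 CPM. By fold it ranked 5 in TN cells and 2 in VM cells. These values chose the miRNA and are not tested; of all tested miRNAs 53.8% passed the test by age, from which nothing is read here. MiR-31-5p was among the tested miRNAs only through the neonatal libraries, since 0 of 4 adult and 3 of 3 neonatal libraries had at least 10 CPM. In sorted cells measured in bulk, fewer cells that express a miRNA and less of it per cell cannot be told apart.

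The comparison of VM with TN cells asked whether miR-31-5p also differs by subset. MiR-31 was not chosen for this comparison, though earlier results of these data were known. In each age the TN libraries stood above the VM libraries with no overlap. In adult cells the 2 TN libraries were at 8.99 and 9.17 CPM and the VM libraries at 6.57 and 7.65, and in neonatal cells the TN library was at 241 CPM and the VM libraries at 154 and 186. The difference over both ages did not pass the test, with VM cells at a log2 fold change of -0.43 (SE 0.22, interval -0.93 to 0.08, edgeR quasi-likelihood test, unadjusted p = 0.0863, Benjamini-Hochberg adjusted p = 0.18). That interval reaches from about 0.524 to 1.05 times the TN level. Of all tested miRNAs 24.7% passed in this comparison, and the median log2 fold change of all was 0.01.

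Within an age the subset difference of miR-31-5p did not pass either. In adult cells it was -0.35 (SE 0.33, interval -1.07 to 0.36, edgeR adjusted p = 0.416), where 39.2% of miRNAs passed. In neonatal cells it was -0.50 (SE 0.29, interval -1.13 to 0.13, edgeR adjusted p = 0.316), where 9.72% passed. That test set 2 VM libraries against 1 TN library, which was assumed to vary like the others.

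The difference between these values, the interaction of age and subset, was -0.14 (SE 0.45, interval -1.12 to 0.83, edgeR adjusted p = 0.915), and 7.99% of miRNAs passed. Its sign turned in 5 of 17 alternatives and it passed in 0 of them. That interval spans an age fold in VM cells of 0.461 to 1.78 times that in TN cells.

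**Figure D3:**
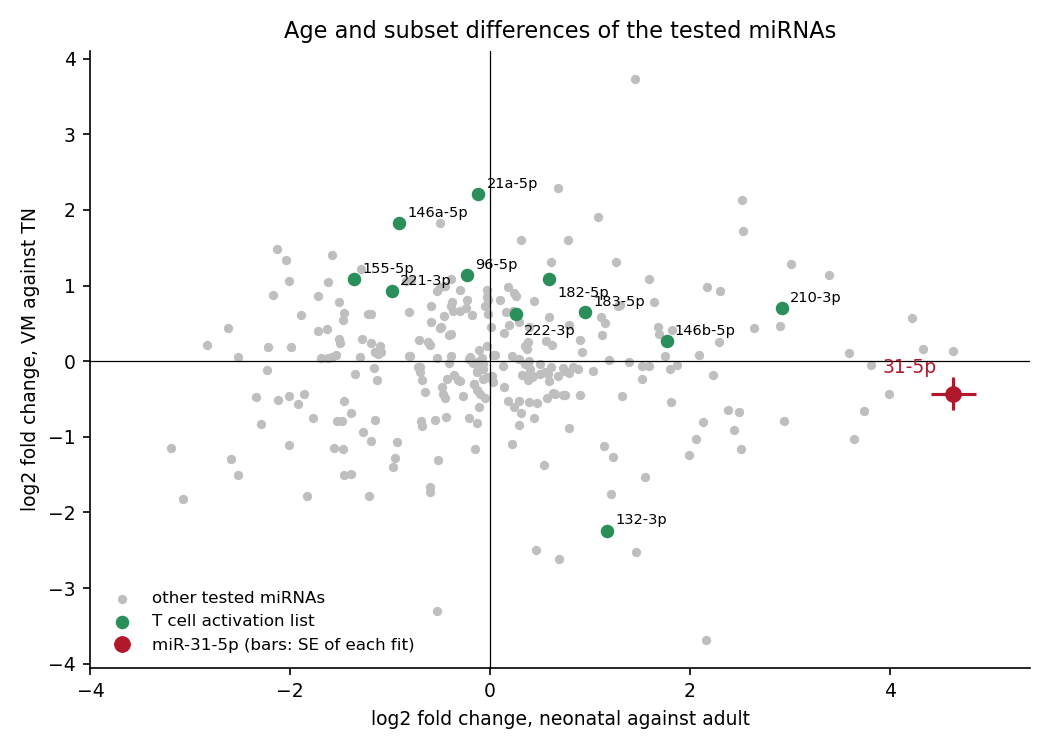
Log2 fold change of neonatal against adult cells (x axis) and of VM against TN cells (y axis) for the 288 tested miRNAs. Green points are the 11 tested miRNAs of the T cell activation list, and the red point is miR-31-5p with the SE of each fit as bars, at 4.64 for age and -0.43 for subset.

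The miRNAs whose profiles were most like that of miR-31-5p were ranked by Pearson's r of log2 CPM over the 7 libraries, among 165 other tested miRNAs whose mean reached 50 CPM. The libraries fall into 2 ages, so r mostly reflects a shared step between them, and it is given as a description. The 5 highest were miR-298-5p (r = 0.987), miR-5099 (0.985), miR-363-3p (0.983), miR-351-5p (0.980) and miR-181d-5p (0.978). Over all candidates r was above 0.95 for 10 miRNAs and below -0.95 for 8.

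MiR-298-5p, from the imprinted Gnas locus, stood at 204 and 271 CPM for adult TN, 224 and 101 for adult VM, 2749 and 2845 in neonatal VM and 3363 in neonatal TN. Its log2 fold change with age was 3.99, and its neonatal values were well above its adult values in every library, as for miR-31-5p. MiR-351-5p, from the X-linked cluster with miR-322, stood at 59.9 and 68.5 CPM for adult TN, 33.0 and 28.0 for adult VM, 372 and 414 in neonatal VM and 770.4 in neonatal TN. Its order of groups was the same as that of miR-31-5p. MiR-5099, miR-363-3p and miR-181d-5p, a member of the family that tunes T cell receptor sensitivity, had the same step at a smaller size, with log2 fold changes with age of 1.87, 1.19 and 2.09.

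At the other end, miR-29a-3p, a repressor of T-bet and interferon gamma, had r = -0.996. It stood at 14080 and 12342 CPM for adult TN, 15124 and 13292 for adult VM, 2131 and 2163 in neonatal VM and 1643 in neonatal TN. The library with the most miR-31-5p, neonatal TN, had the least miR-29a-3p. MiR-378d (r = -0.981) and miR-1843a-3p (r = -0.978) followed.

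Mature sequences of 3 of the 5 most like profiles and of the least like one, miR-29a-3p, are given so that their seeds, in capitals, can be read beside that of miR-31-5p.
miR-31-5p: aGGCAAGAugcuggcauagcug
miR-298-5p: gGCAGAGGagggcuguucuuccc
miR-351-5p: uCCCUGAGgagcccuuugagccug
miR-363-3p: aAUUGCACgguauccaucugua
miR-29a-3p: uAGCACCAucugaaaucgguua

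**Figure D4:**
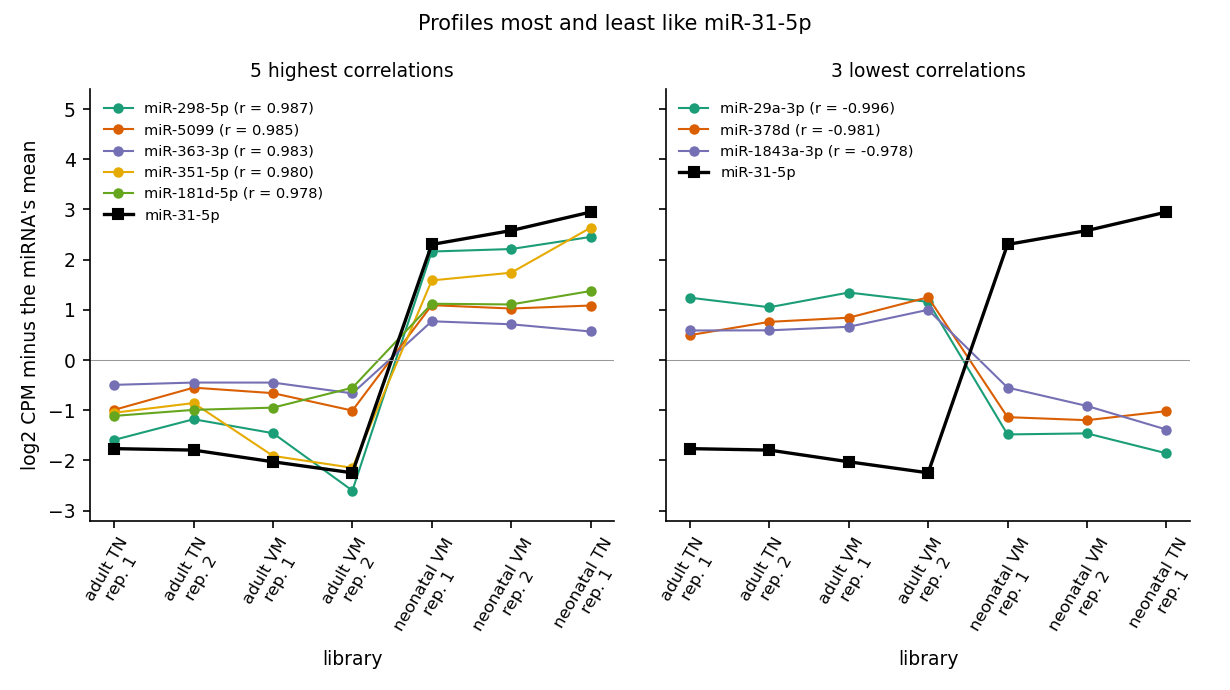
Log2 CPM minus each miRNA's own mean (y axis) over the 7 libraries (x axis) for miR-31-5p (black squares), the 5 miRNAs with the highest r (left) and the 3 with the lowest (right). Lines join libraries only to guide the eye. MiR-298-5p and miR-351-5p step up with miR-31-5p between adult and neonatal libraries, and miR-29a-3p steps down.

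Since T cell receptor signals induce miR-31, it was set beside 14 other miRNAs known to change on T cell activation, of which 11 were tested, 2 had counts too low to test and miR-214-3p had 0 counts in every library. The list was chosen with earlier results of these data known, so its counts and medians, with age and by subset, are a description. With age 3 of the 11 rose and 2 fell, against 26.4% of all tested miRNAs higher and 27.4% lower. The risers were miR-146b-5p (log2 fold change 1.77, edgeR adjusted p = 0.0171), miR-132-3p, a CREB target (1.17, edgeR adjusted p = 0.0212), and miR-210-3p, which hypoxia induces (2.92, SE 0.48). MiR-210-3p is among the 3 but entered the test only through the neonatal libraries, so its rise is given as a description. MiR-155-5p, from the Bic transcript, fell (-1.36, edgeR adjusted p = 9.96e-04), as did miR-221-3p (-0.99, edgeR adjusted p = 0.00403). The median of the 11 was 0.25 against -0.05 over all tested miRNAs.

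The largest increase of the list, that of miR-210-3p, ran over low levels. It stood at 2.16 and 0.856 CPM for adult TN, 5.23 and 8.64 for adult VM, 28.7 and 33.2 in neonatal VM and 34.8 in neonatal TN. Its neonatal and adult libraries did not overlap. How many of all tested miRNAs also showed no overlap was not counted. As for miR-31-5p, 0 of 4 adult libraries reached 10 CPM, so miR-210-3p was tested only through the neonatal libraries, where it was high. MiR-155-5p went the other way, at 380 and 367 CPM for adult TN, 907 and 1117 for adult VM, 322 and 294 in neonatal VM and 206 in neonatal TN.

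By subset, again as a description, 4 of the 11 rose in VM cells and 1 fell, against 10.8% of all tested miRNAs higher and 13.9% lower. The risers were miR-21a-5p (2.21, edgeR adjusted p = 4.12e-04), miR-146a-5p (1.82, edgeR adjusted p = 0.0127), miR-155-5p (1.09, edgeR adjusted p = 0.0140) and miR-221-3p (0.93, edgeR adjusted p = 0.0192). MiR-132-3p fell (-2.24, edgeR adjusted p = 0.00459). MiR-31-5p had its higher values in TN cells, as miR-132-3p did, whereas miR-21a-5p was higher in the VM libraries of both ages, but its own difference did not pass. The median of the list was 0.93 against 0.01 over all tested miRNAs. These values average the 2 ages, which differed for some members. MiR-182-5p, miR-183-5p and miR-146b-5p stood higher in VM cells of adults (log2 fold changes 2.06, 1.52 and 1.48). In neonatal cells, with 1 TN library, they stood at -0.18, -0.48 and -1.18. MiR-155-5p (1.44 and 0.58), miR-146a-5p (2.52 and 0.86) and miR-132-3p (-2.34 and -2.11) kept their sign in adult and neonatal cells.

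These list counts changed when single libraries were left out, and without neonatal TN the subset comparison comes from the adult libraries alone. With age they were 1 higher and 3 lower without adult TN replicate 1, 2 and 2 without adult VM replicate 1, adult TN replicate 2 or neonatal VM replicate 2, and 4 and 3 without neonatal TN. By subset they were 1 and 1 without adult TN replicate 1 or 2, and 9 and 1 without neonatal TN. With all libraries, the counts of the list under library totals alone were 5 and 1 with age and 6 and 1 by subset. With no filter, where 13 members were tested, they were 6 and 3 with age and 6 and 2 by subset. Library totals turned the split of all calls from 76 higher and 79 lower to 119 and 53 with age, and from 31 and 40 to 59 and 27 by subset. Upper quartile factors gave 58 and 25 by subset.

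Marker miRNAs of the sorted cells and of other cell types, among them the epithelial and stromal cells that carry miR-31, were read beside it. The 5 lymphocyte miRNAs of the list, among them miR-150-5p and miR-142a-5p, summed to 342212 to 592568 CPM in adult and 166053 to 286765 CPM in neonatal libraries, ranges that do not overlap. That sum did not describe every member. With neonatal age miR-150-5p was lower (log2 fold change -2.01), miR-181a-5p was higher (0.69) and 3 did not pass. Of all tested miRNAs 26.4% were higher and 27.4% lower. MiR-150-5p alone stood at 207898 to 435175 CPM in adult and 62255 to 77563 CPM in neonatal libraries. The 8 epithelial markers summed to 764 to 1644 CPM in adult and 909 to 1074 CPM in neonatal libraries, ranges that overlap. Of the 7 tested, miR-200b-3p was higher with neonatal age, miR-200a-3p and miR-203-3p lower, and 4 did not pass. These counts stand beside the same 26.4% higher and 27.4% lower of all tested miRNAs. MiR-205-5p, a marker of squamous epithelium, stood at 0.428 to 16.5 CPM in adult and 15.3 to 24.9 CPM in neonatal libraries.

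The 8 stromal and muscle markers summed to 15.6 to 49.8 CPM in adult and 59.8 to 98.3 CPM in neonatal libraries, so they moved with age in the same direction as miR-31-5p. Most of that sum was miR-143-3p, which smooth muscle and fibroblasts express and which was higher in neonatal cells (log2 fold change 1.82, edgeR adjusted p = 0.0163), and miR-10b-5p, which did not pass. MiR-214-3p, miR-1a-3p and miR-206-3p were at 0 counts in all libraries, and miR-145a-5p, made from the same transcript as miR-143-3p, had 1 count in all. In each neonatal library the miR-31-5p level, at 154 to 241 CPM, was above the stromal sum. In each adult library, at 6.57 to 9.17 CPM, it was below that sum. Among endothelial and progenitor markers miR-126a-5p rose with neonatal age and miR-10a-5p fell, against 26.4% of all tested miRNAs higher and 27.4% lower. MiR-126a-3p also stood higher, which is a description only. It reached 10 CPM in 0 of 4 adult libraries, so it too was tested only through neonatal ones. The sum of the 3 was 75.0 to 192 CPM in adult and 86.5 to 140 CPM in neonatal libraries. The erythroid sum was 124 to 297 CPM in adult and 80.0 to 230.3 CPM in neonatal libraries. It was mostly miR-486a-5p, whose age difference did not pass. MiR-451a, too low to test, stood at 2.14 to 3.11 and 2.87 to 9.65 CPM, and miR-144-3p at no more than 1.21 CPM. The myeloid marker miR-223-3p stood at 1.71 to 15.6 CPM in adult and 0.989 to 3.92 CPM in neonatal libraries. The part of other cells in the age difference of miR-31-5p was not tested.

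**Figure D5:**
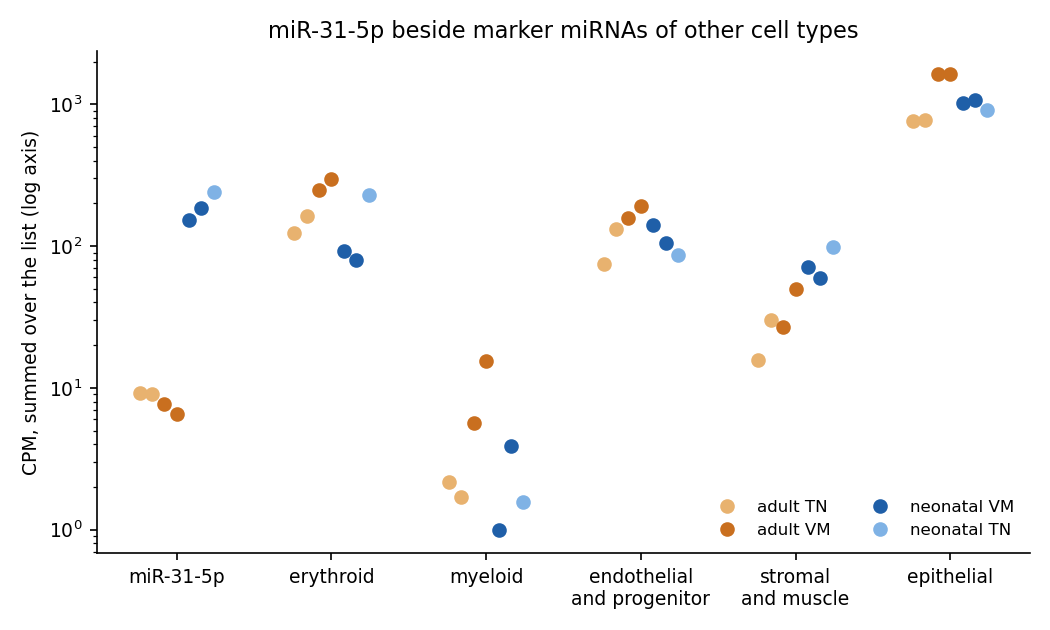
CPM (log axis) of miR-31-5p and of marker miRNAs summed over 5 lists of other cell types (the lymphocyte list is not drawn), with 1 point per library coloured by group. MiR-31-5p and the stromal and muscle sum are higher in all 3 neonatal than in all 4 adult libraries, while the ranges of the other 4 lists drawn overlap between the ages.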

How the data were processed

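Small RNA libraries of sorted CD8+ T cells were made with the Illumina TruSeq kit, per the labels' protocols. The authors deposited estimated counts per mature arm and precursor, partly fractional, on mm10 per the submitters' processing notes. Aligner and counter are not given in the sources used here. The 2128 lines were summed per mature name, then rounded (largest shift 0.5). Titles gave the groups of all 7 libraries. The 288 miRNAs reaching 10 CPM (15.8 to 32.8 counts) in 2 or more libraries were tested. Tests used edgeR 4.0.16 (R 4.3.3) with TMM factors, robust quasi-likelihood dispersions and Benjamini-Hochberg adjustment at 0.05. An additive model of age and subset (4 residual degrees of freedom) gave the averages, and a cell means model (3) the other contrasts. SE and 95% intervals belong to the fitted log2 fold changes. Log2 CPM for profiles used a prior count of 2. Alternatives included DESeq2 1.42.0 and limma 3.58.1. The method was tested on simulated data. Named miRNAs were both members, the 14 activation miRNAs, the marker lists, sharers of a seed, and the 5 profiles most and 3 least like miR-31-5p. Members and lists were chosen with earlier results of these data known. Sequences are from RefSeq (1679 of 1978 names matched), folded with RNAfold 2.7.2. Plots used matplotlib 3.10.9. Reads, isomiRs and targets were not analysed here.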

Additional observations from a re-analysis of the deposited data

How the results depend on the processing

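The subset differences of miR-31-5p (over both ages, in adult and in neonatal cells) stayed negative and did not pass in any of 18 alternatives each, at -0.50 to -0.25, -0.57 to -0.25 and -0.58 to -0.12, with lowest adjusted p of 0.119, 0.16 and 0.106. The interaction did not pass in any of 17 alternatives, but turned to 0.26 with upper quartile factors, 0.20 without the 5 most abundant miRNAs in the library sizes and 0.0008 with a 100 CPM filter. With a library left out it ran from -0.20 to 0.0932, with 0.0932 without neonatal VM replicate 1 and 0.0052 without adult TN replicate 2. The age difference ran from 4.50 to 5.08 over both subsets, 4.42 to 5.09 in TN and 4.43 to 5.08 in VM cells. Library totals gave 5.08, 5.09 and 5.08, where the median of all miRNAs moved by 0.45 over both subsets. No filter gave 4.50 over both subsets and 4.55 in TN, a 100 CPM filter 4.79 over both and 4.79 in VM, upper quartile factors 4.42 in TN, and library sizes without the 5 most abundant 4.81 in VM. With a library left out it was 4.53 to 4.68 over both subsets, 4.58 to 4.69 in TN and 4.43 to 4.73 in VM.

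MiRNAs called by age numbered 155, and 79 with a 100 CPM filter, which tests fewer. By subset over both ages 71 passed, 107 with no filter, 41 with 100 CPM and 18 to 112 with a library left out (25 and 18 without adult TN replicates 1 and 2, 20 without neonatal VM replicate 2, 35 without adult VM replicate 1, 112 without neonatal TN). In adult cells 113 passed and 23 to 142 with a library left out (54 and 23 without adult TN replicates 1 and 2). In neonatal cells 28 passed, 52 with upper quartile factors, 52 with no filter, 80 with only those libraries and 16 to 77 with a library left out (56 and 77 without adult VM replicates 1 and 2, 16 without adult TN replicate 2, 17 without neonatal VM replicate 2). For the interaction 23 passed, 43 with no filter, 38 with DESeq2, 15 with limma voom and 6 to 86 with a library left out (86 and 59 without adult VM replicates 1 and 2, 9 and 6 without adult TN replicates 1 and 2, 13 and 15 without neonatal VM replicates 1 and 2). The cause was not tested.

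Replicate 1 minus replicate 2 correlated at 0.02, 0.14 and -0.16 between groups, so the numbers were not taken to pair libraries. With the replicate block the subset count was 42 and miR-31-5p stood at -0.43 (edgeR adjusted p = 0.302). Ranking profiles by distance kept 2 of the 5 most like miRNAs, miR-298-5p and miR-351-5p. The largest precursor value per name, chosen after seeing the data, gave a subset difference of -0.50 (edgeR adjusted p = 0.119). In the adult or TN libraries alone miR-31-5p was below the filter, and without neonatal TN no interaction, neonatal subset or TN age value could be had. The 5p share moved by less than its SD under its alternatives. Depth limits the adult values (17 to 21 counts) and every value of miR-31-3p.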
